A study of Rattus norvegicus with 64 samples.

Results

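Gene expression 7 days after bladder reconstruction was compared between 2 kinds of graft, both made of bladder acellular matrix (BAM): one carried adipose-derived stromal cells (ASCs, labelled ADSCs) and the other was implanted without cells. The comparison took the 8 arrays labelled BAM_ADSCs_7d and the 8 arrays labelled BAM_7d, that is 16 of the 64 arrays of the series. BAM is bladder wall from which the cells were removed. All rats were male Wistar animals that underwent hemicystectomy and augmentation with a graft, so the control rats had the same operation and the same kind of matrix. The seeded matrix was cultured with its cells for 7 days before surgery, in medium with serum and basic fibroblast growth factor. The paper describes no such culture of the unseeded matrix, so cells and culture cannot be told apart. The ASCs had been grown from retroperitoneal fat of other male Wistar rats, 10 weeks old, to the third passage. The labels give an age only for these fat donors, not for the operated rats. The paper calls the rats syngeneic in its methods and the ASCs autologous in a figure caption. RNA of the ASCs was not told apart from that of the host. RNA came from the reconstructed wall after it was separated from native bladder, and each array held the RNA of 1 rat.

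The bladder is lined by urothelium, a stratified epithelium whose surface cells carry plaques of uroplakins and tight junctions that hold urine back. After an acellular graft is sewn in, urothelium, smooth muscle and vessels grow in from the host bladder, while neutrophils and macrophages enter the matrix and clear and remodel it. Lipocalin 2, haptoglobin and interleukin 6 are products of early inflammation, whereas fibroblasts and pericytes lay down collagens, proteoglycans and basement membrane around new vessels.

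A level below is the log2 signal of a probe relative to the 75th percentile of its array, and a difference is the mean of the ASC-seeded group minus the mean of the BAM group on that log2 scale. A probe was called differentially expressed at an adjusted p below 0.01 in the limma fit over all 64 arrays and a fold change over 1.5. Of 20997 probes tested, 655 were higher with ASCs (3.12%) and 1412 were lower (6.72%), so 9.84% were called either way. The higher share of all calls was 31.7%, and it was 50.2% after quantile normalization, 22.9% after normexp background correction and 19.5% in a fit of the 16 arrays alone. The median difference over all probes was -0.10, and the differences below should be read against that shift. For named genes, each taken by its brightest probe, 424 of 11733 were higher (3.61%) and 684 were lower (5.83%), together 9.44%, with a median of -0.08.

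The 8 arrays of a group shared 1 slide and no slide held both groups, so slide and group cannot be told apart. Spots well above background made up 73.8% to 77.9% of an array in the ASC-seeded group and 74.6% to 86.1% in the BAM group, and BAM replicate 7 gave the highest share. Pairwise correlations over the tested probes were 0.973 to 0.992 within the ASC-seeded group and 0.930 to 0.991 within the BAM group. BAM replicates 6 and 7 lay farthest out on the first principal component and had the lowest median correlations with the other group (0.946 and 0.919), so counts are also given without them, an alternative chosen after seeing the data: 210 probes were then higher and 702 were lower. Within the BAM group the lowest median correlations were those of replicate 7 (0.952) and replicate 2 (0.965), and without replicate 2 alone 648 probes were higher and 1526 were lower. Of 104 called genes named below, 47 were also called without BAM replicates 6 and 7, and 57 in the fit of the 16 arrays alone. These 104 leave out Adamts15, Cadm4, Klrk1, Th, Tubb3 and the genes under Other observations. Of the defining markers of the bladder wall, 6 of 8 tested urothelial markers and 6 of 6 smooth muscle markers were well above background on all 16 arrays. The neutrophil markers Mpo and Elane were not among the tested genes.

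To show the sequence around the start sites of genes described below, 3 promoters are printed from the RefSeq table, assembly GRCr8, each from 250 bases before to 50 bases after the start: Upk1b, which was higher with ASCs, and Lcn2 and Il6, which were lower. They lie at chr11:75459131-75459430 on the plus strand (Upk1b), chr3:36081731-36082030 on the minus strand (Lcn2) and chr4:5894526-5894825 on the minus strand (Il6). Capitals mark matches, on either strand, to AACNNGTT, a core bound by grainyhead-like factors, to a kappa B core bound by NF-kappa B, and to TTGCNNAA, a C/EBP core. None of these matches overlapped another.
Upk1b: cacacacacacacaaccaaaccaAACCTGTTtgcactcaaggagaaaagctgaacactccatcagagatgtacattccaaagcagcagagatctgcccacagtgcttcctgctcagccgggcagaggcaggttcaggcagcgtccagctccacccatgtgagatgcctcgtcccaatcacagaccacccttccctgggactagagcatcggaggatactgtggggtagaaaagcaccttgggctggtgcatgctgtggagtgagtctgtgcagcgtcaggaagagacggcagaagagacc
Lcn2: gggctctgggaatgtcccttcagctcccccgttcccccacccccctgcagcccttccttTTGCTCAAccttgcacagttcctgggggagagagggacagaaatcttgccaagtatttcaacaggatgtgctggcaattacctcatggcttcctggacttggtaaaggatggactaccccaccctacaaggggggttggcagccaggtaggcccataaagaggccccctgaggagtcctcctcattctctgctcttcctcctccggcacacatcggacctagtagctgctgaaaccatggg
Il6: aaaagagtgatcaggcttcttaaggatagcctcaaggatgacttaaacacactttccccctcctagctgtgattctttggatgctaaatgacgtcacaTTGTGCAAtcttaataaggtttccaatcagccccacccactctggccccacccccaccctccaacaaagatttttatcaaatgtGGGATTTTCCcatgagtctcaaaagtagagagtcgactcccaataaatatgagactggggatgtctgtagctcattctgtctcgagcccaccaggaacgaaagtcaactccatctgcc
A grainyhead-like core, which reads the same on both strands, was in the Upk1b promoter and in 4.23% of 33469 promoters of this length. A kappa B core was in the Il6 promoter and in 1.11% of them, and a C/EBP core was in the Lcn2 and Il6 promoters and in 10.6% of them. No match to the GATA core AGATAA, which 11.6% of promoters hold, was found in these 3. The table matched Upk1a and Upk3a too: the Upk3a promoter held a C/EBP core, neither held a grainyhead-like core, and Upk1a held none of these matches. It gave no entry under Upk2 or Hp.

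Urothelial genes were higher in the ASC-seeded group. Over 5 lists of urothelial genes, 82 of 105 listed genes were tested. Of these, 50 were higher (61.0%, against 3.61% of all named genes) and 0 were lower in the limma fit. At an unadjusted p below 0.05 in that fit, 1 was lower. The median difference of the 82 was 1.59, against -0.08 over all named genes tested. Of the 67 that were well above background on all 16 arrays, 44 were higher. No urothelial gene was higher without overlap between the 8 and 8 arrays, as against 0.343% of all probes. Without BAM replicates 6 and 7, 15 of the 82 were higher (18.3%, against 1.02% of all named genes in that setting) and the median was 1.05. Without replicate 7 alone, 32 were higher (39.0%, against 2.41%). In the fit of the 16 arrays alone, whose spread is estimated from these groups only, 19 were higher and 1 was lower. In bulk RNA, fewer urothelial cells and less RNA per cell cannot be told apart. The paper's histology reported no significant difference between the seeded and unseeded grafts in how the urothelium regenerated. By day 7 it describes a multilayered urothelium over the luminal side of the graft, thinner in certain cases.

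Uroplakins form the rigid plaques of the apical membrane, with Upk1a and Upk1b as tetraspanins that pair with Upk2 and Upk3a. Of 5 tested members 4 were higher, and of the 4 that were well above background on all 16 arrays 3 were higher. Upk1a levels were 1.82 to 4.75 (median 3.90) with ASCs and -2.36 to 4.12 (median 1.64) with BAM, a 5.14-fold difference (2.36 ± 0.45, SE, adjusted p = 6.1e-05). Upk2 levels were -1.43 to 2.08 (median 0.96) with ASCs and -6.46 to 1.11 (median -1.62) with BAM, and the difference was 2.87 ± 0.58 (adjusted p = 0.000156). Upk2 was well above background on 7 of 8 BAM arrays and entered the test through the ASC-seeded group, where it was higher. Upk3a levels were 3.89 to 5.71 (median 5.40) with ASCs and -1.95 to 5.43 (median 3.32) with BAM, with a difference of 2.28 ± 0.47 (adjusted p = 0.000218), and its probe was saturated on 3 of the 16 arrays. For each of these 3 genes, 5 of 8 BAM arrays lay below every ASC array, and the other 3 lay inside the ASC range. Upk1b levels were 3.54 to 5.48 (median 5.00) with ASCs and 0.28 to 4.69 (median 3.25) with BAM, with a difference of 1.79 ± 0.34 (adjusted p = 8.09e-05), and 6 of 8 ASC arrays exceeded every BAM array. The remaining member, Upk3bl1, differed by 1.42 ± 0.55 (adjusted p = 0.0495) and was not called. The 4 uroplakins were also called without BAM replicates 6 and 7, with differences of 1.53 for Upk1a, 1.09 for Upk1b, 2.01 for Upk2 and 1.33 for Upk3a. In the fit of the 16 arrays alone, none of the 4 was called, with adjusted p of 0.0247, 0.0218, 0.0239 and 0.0431 in the same order.

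**Figure D1:**
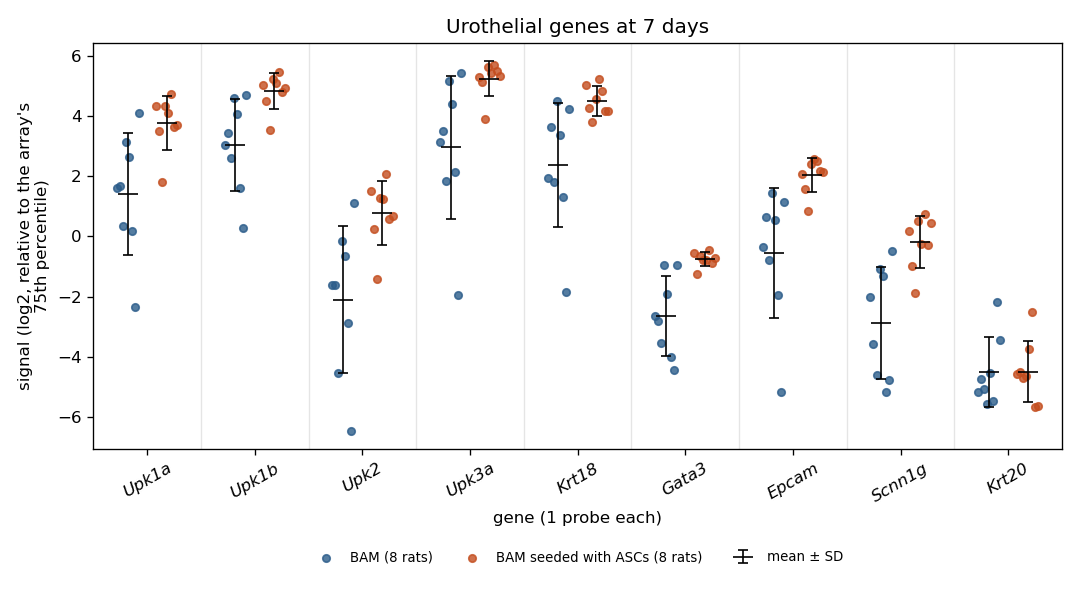
Level of 9 urothelial genes in each array at 7 days (y axis, log2 signal relative to the 75th percentile of the array; x axis, gene). Points are rats, and black bars are the mean and SD of 8 rats. The ASC-seeded arrays sit at the upper end of the BAM arrays for Upk1a, Upk1b, Upk2 and Upk3a, the BAM arrays spread wider, and Krt20 was -5.67 to -2.53 with ASCs and -5.59 to -2.17 with BAM.

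Of 11 tested urothelial keratins, which build the intermediate filaments of the epithelium, 7 were higher (63.6%, against 3.61% of all named genes) and 0 were lower in the limma fit. At an unadjusted p below 0.05, 8 were higher and 0 lower. Of the 9 that were well above background on all 16 arrays, 6 were higher. Krt18, the partner of Krt8 in simple epithelia, ranged from 3.82 to 5.25 (median 4.43) with ASCs and from -1.85 to 4.50 (median 2.65) with BAM, with a difference of 2.14 ± 0.45 (adjusted p = 0.000324). Krt8, Krt7 and Krt19 differed by 2.05, 2.06 and 2.05, with adjusted p of 0.00045, 0.00203 and 0.00225. The basal keratin Krt5 differed by 1.72 ± 0.56 (adjusted p = 0.018) and was not called. Krt20, the keratin of mature umbrella cells, had medians of -4.61 with ASCs and -4.91 with BAM and a difference of 0.02 ± 0.56. None of the 11 keratins (0) was called without BAM replicates 6 and 7, and 3 were called without replicate 7 alone.

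Transcription factors that direct urothelial differentiation were higher in 10 of 19 tested genes (52.6%, against 3.61% of all named genes). Of the 17 that were well above background on all 16 arrays, 9 were higher. Gata3, which is also known for its role in T helper cells, ranged from -1.26 to -0.46 (median -0.75) with ASCs and from -4.44 to -0.94 (median -2.72) with BAM. Its difference was 1.89 ± 0.34 (adjusted p = 3.05e-05), and 7 of 8 ASC arrays exceeded every BAM array. Klf5, a factor of proliferating and maturing epithelium, ranged from 0.00 to 1.15 (median 0.90) with ASCs and from -4.64 to 0.53 (median -0.83) with BAM, and differed by 2.01 ± 0.42 (adjusted p = 0.000298). Elf3, Ovol1 and the grainyhead-like factor Grhl2 differed by 1.97, 1.81 and 1.60, with adjusted p of 0.00104, 0.00204 and 0.000533. Ovol1 was well above background on 7 of 8 BAM arrays. A dimmer probe of Ovol1 and one of Grhl2 had differences of the opposite sign. Pparg, which acts in urothelium and in adipocytes, differed by 0.93 ± 0.26 (adjusted p = 0.00633). Of the 19, 2 were called without BAM replicates 6 and 7, and 5 were called without replicate 7 alone.

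Genes of epithelial junctions were higher in 17 of 25 tested members (68.0%, against 3.61% of all named genes), with a median difference of 1.17. Of these 25, 5 passed the filter through 1 group only, and of the 20 well above background on all 16 arrays 16 were higher. Epcam, an adhesion molecule of epithelia, ranged from 0.85 to 2.56 (median 2.16) with ASCs and from -5.19 to 1.43 (median 0.10) with BAM, with a difference of 2.60 ± 0.49 (adjusted p = 6.68e-05). The tight junction gene Cldn7 differed by 2.05 ± 0.43 (adjusted p = 0.000298). Cldn8 differed by 1.87 ± 0.37 (adjusted p = 0.000123) and was well above background on 8 of 8 ASC arrays and 2 of 8 BAM arrays. The desmosomal gene Perp differed by 1.84 and E-cadherin, Cdh1, by 1.67, with adjusted p of 0.00181 and 0.002. Of the 25, 5 were called without BAM replicates 6 and 7, and 10 were called without replicate 7 alone.

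Barrier and surface genes were higher in 12 of 22 tested members (54.5%, against 3.61% of all named genes). Of these 22, 5 passed the filter through 1 group only, and of the 17 well above background on all 16 arrays 10 were higher. The largest called difference among them was that of Hsd11b2, which inactivates glucocorticoids, at -2.30 to 2.13 (median 0.85) with ASCs and -4.46 to -0.15 (median -2.75) with BAM. Its difference was 3.10 ± 0.66 (adjusted p = 0.00037). Scnn1g, the gamma subunit of the epithelial sodium channel, ranged from -1.87 to 0.73 (median -0.04) with ASCs and from -5.19 to -0.49 (median -2.81) with BAM, a difference of 2.69 ± 0.48 (adjusted p = 2.85e-05). The beta subunit Scnn1b differed by 1.99 ± 0.36 (adjusted p = 3.4e-05). Ly6g6e differed by 2.81 ± 0.55 and Sprr1a, a cornified envelope precursor, by 2.56 ± 0.57, with adjusted p of 0.000107 and 0.000587. Of the 22, 4 were called without BAM replicates 6 and 7.

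**Figure D2:**
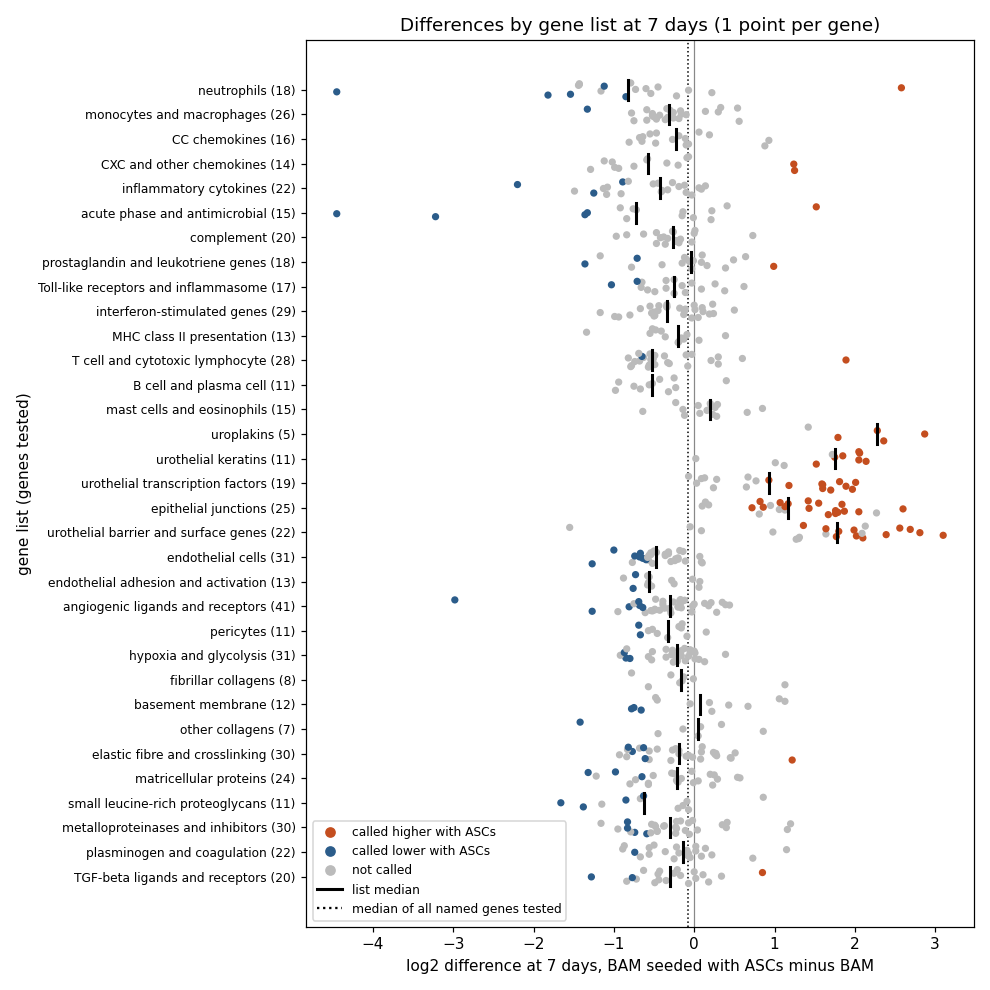
Difference at 7 days for each gene of the inflammation, urothelium, vessel and matrix lists (x axis, log2 difference, BAM seeded with ASCs minus BAM; y axis, gene list with the number of genes tested). Points are genes, coloured by call, and black bars are list medians. The 5 urothelial lists lie to the right, with medians of 0.93 to 2.28, and the dotted line marks the median of all named genes, -0.08.

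Inflammatory genes showed fewer calls. Over 14 inflammation lists, 253 of 327 listed genes were tested, 16 were lower and 6 were higher, and the median difference was -0.33. The lower share was close to the 5.83% of all named genes, since 16 of 253 is 6.32%. Without BAM replicates 6 and 7, 8 were lower (3.16%, against 2.83% of all named genes in that setting) and 2 were higher. Without replicate 7 alone, 10 were lower (3.95%, against 4.07%). The members are described by role below, and several genes stand in more than 1 list.

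Lcn2, an iron-scavenging protein of neutrophil granules and of injured epithelium, had the largest difference of the lists. Its levels were -4.80 to 1.40 (median -2.32) with ASCs and -0.20 to 5.03 (median 2.38) with BAM. In all, 7 of the 8 ASC arrays lay below every BAM array, and the difference was -4.45 ± 0.76 (adjusted p = 1.26e-05), that is 21.9-fold higher with BAM. Haptoglobin, Hp, which binds free haemoglobin, ranged from -3.25 to 0.51 (median -2.52) with ASCs and from -0.14 to 3.16 (median 1.27) with BAM, a difference of -3.22 ± 0.50 (adjusted p = 1.95e-06). Both genes were also called in the fit of the 16 arrays alone and without BAM replicates 6 and 7, where the differences were -3.96 for Lcn2 and -3.00 for Hp. The other acute phase calls were Lbp, which presents bacterial lipopolysaccharide, at -1.36 ± 0.26 (adjusted p = 6.9e-05), the inducible nitric oxide synthase Nos2 at -1.33 ± 0.37 (adjusted p = 0.00568), and Wfdc2, a secreted product of epithelia, at 1.52 ± 0.33 (adjusted p = 0.000397). In all, 4 of 15 tested members of this list were lower and 1 was higher.

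Of 18 tested neutrophil genes, 5 were lower and 1 was higher, with a median of -0.82. Csf3r, the receptor for granulocyte colony-stimulating factor, ranged from -3.13 to -1.18 (median -2.49) with ASCs and from -1.52 to 0.94 (median -0.46) with BAM. Its difference was -1.82 ± 0.36 (adjusted p = 0.00014), and 7 of 8 ASC arrays lay below every BAM array. The chemokine receptor Cxcr2 differed by -1.54 ± 0.45 (adjusted p = 0.00789), the peptidoglycan-binding Pglyrp1 by -1.12 ± 0.27 (adjusted p = 0.00141) and the cathelicidin Camp by -0.85 ± 0.24 (adjusted p = 0.0072). The defensin Np4 went the other way, at -4.05 to 0.57 (median -1.30) with ASCs and -5.95 to -1.50 (median -4.40) with BAM, a difference of 2.58 ± 0.54 (adjusted p = 0.000289). It was well above background on 7 of 8 BAM arrays and entered the test through the ASC-seeded group, where it was higher; of the 17 neutrophil genes measured on all 16 arrays, 0 were higher and 5 were lower in limma. The brightest members, S100a9 and its partner S100a8, differed by -1.43 ± 0.78 and -1.44 ± 0.80 (adjusted p = 0.181 and 0.194) and were not called. Leaving out BAM replicates 6 and 7 left 2 neutrophil genes lower and 1 higher.

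Of 22 tested cytokines 3 were lower and 0 were higher, with 10 lower at an unadjusted p below 0.05. Il6, which drives the acute phase response, ranged from -7.49 to -4.60 (median -6.57) with ASCs and from -5.49 to -1.54 (median -4.80) with BAM. It was well above background on 2 of 8 ASC arrays and 8 of 8 BAM arrays, and the difference was -2.20 ± 0.50 (adjusted p = 0.000748). Il6 thus entered the test through the BAM group, where it was higher, and of the 20 cytokines measured on all 16 arrays 2 were lower. After normexp correction the Il6 difference was -1.03 (adjusted p = 0.00126), and the kappa B and C/EBP cores of its promoter are printed above. Il11, a relative of Il6 made by stromal cells, did not overlap between groups, with levels of -3.48 to -2.91 (median -3.06) with ASCs and -2.78 to -1.15 (median -1.55) with BAM, and differed by -1.25 ± 0.16 (adjusted p = 1.32e-08). Such separation in the lower direction was found for 4.84% of all probes. Oncostatin M, Osm, differed by -0.89 ± 0.23 (adjusted p = 0.00344). Il1b and Tnf, central cytokines of acute inflammation, differed by -1.13 ± 0.55 and -0.82 ± 0.52 (adjusted p = 0.128 and 0.262) and were not called.

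Chemokines were mostly not called. Of 16 CC chemokines 0 passed in limma, with 2 higher and 1 lower at an unadjusted p below 0.05. Of 14 CXC and other chemokines 2 were higher, and both are known products of epithelium: Cxcl14 at 1.24 ± 0.27 (adjusted p = 0.000526) and Cx3cl1 at 1.25 ± 0.28 (adjusted p = 0.00057). The neutrophil attractant Cxcl1 differed by -1.29 ± 0.61 (adjusted p = 0.119) and was not called. Neither Cxcl14 nor Cx3cl1 was called without BAM replicates 6 and 7.

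Macrophage genes gave 1 call in 26, Nos2. Cd68, a lysosomal protein of macrophages, had medians of 3.95 with ASCs and 4.34 with BAM (difference -0.30 ± 0.46, adjusted p = 0.685), where 6 of 8 BAM arrays lay above every ASC array and BAM replicate 2 lay below them all at 2.69. The receptor Csf1r had medians of 0.55 and 0.60 (difference -0.10 ± 0.28, adjusted p = 0.834). Among 17 Toll-like receptor and inflammasome genes, Tlr2, a sensor of bacterial lipoproteins, and its partner Tlr6 were lower, with differences of -1.03 ± 0.24 and -0.71 ± 0.19 (adjusted p = 0.00112 and 0.00441). Neither was called without BAM replicates 6 and 7.

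Of 18 prostaglandin and leukotriene genes 2 were lower and 1 was higher. Ltc4s, which makes leukotriene C4 and lies mainly in mast cells and myeloid cells, ranged from -5.65 to -4.40 (median -5.38) with ASCs and from -4.29 to -3.18 (median -4.00) with BAM, with no overlap and a difference of -1.36 ± 0.27 (adjusted p = 0.000152). Hpgd, which inactivates prostaglandins, ranged from 0.50 to 1.02 (median 0.60) with ASCs and from -1.27 to 0.29 (median -0.25) with BAM, also with no overlap, and was 1.99-fold higher with ASCs (adjusted p = 0.00473). Of all probes, 4.84% were lower and 0.343% were higher without overlap, and the Ltc4s signal was dim. The prostacyclin receptor Ptgir differed by -0.71 ± 0.12 (adjusted p = 1.76e-05).

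Genes of complement, interferon response, class II presentation, B cells and mast cells gave 0 calls in limma, among 20, 29, 13, 11 and 15 tested members. At an unadjusted p below 0.05, 4, 1, 2, 2 and 0 of them were lower and 0, 0, 0, 1 and 1 were higher, in the same order. Of 28 T cell and cytotoxic lymphocyte genes 1 was higher and 1 was lower (3.57% each, against 3.61% and 5.83% of all named genes). The higher one was Gata3, described above with the urothelial factors, and the lower one was Klrk1. The T cell gene Cd3e differed by -0.56 ± 0.47 (adjusted p = 0.414).

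**Figure D3:**
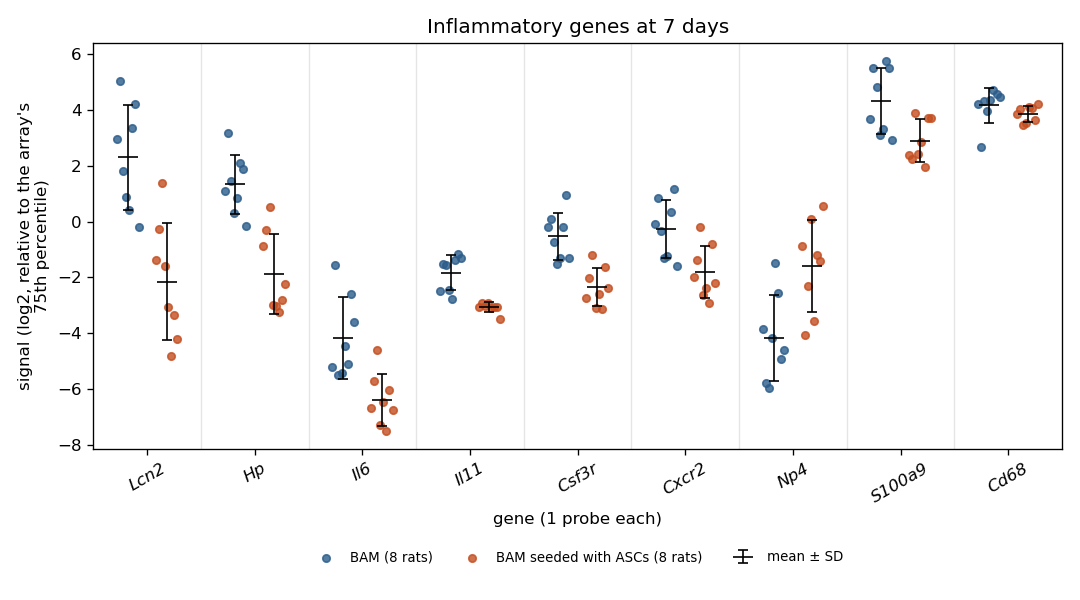
Level of 9 inflammatory genes in each array at 7 days (y axis, log2 signal relative to the 75th percentile of the array; x axis, gene). Points are rats, and black bars are the mean and SD of 8 rats. Lcn2, Hp and Csf3r lie lower in 7 of 8 ASC arrays than in every BAM array, Il11 does not overlap, Np4 lies higher with ASCs, and 6 of 8 BAM arrays lie above every ASC array for Cd68, whose difference was not called.

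Vessel genes were lower where they were called. Over the lists of endothelial cells, adhesion molecules, angiogenic factors, pericytes and hypoxia, 116 of 131 listed genes were tested, 16 were lower (13.8%, against 5.83% of all named genes) and 0 were higher in limma, where 1 was higher at an unadjusted p below 0.05. The median difference was -0.30. Without BAM replicates 6 and 7, 3 were lower (2.59%, against 2.83% of all named genes in that setting) and the median was -0.27. Leaving out 1 array gave 7 lower without BAM replicate 6 or 7, 9 without ASC replicate 4 and 10 without ASC replicate 5 or 7. After quantile normalization 7 were lower (6.03%, against 2.82%).

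Among 31 endothelial genes 7 were lower, and the median was -0.47. Of the 31, 2 were lower without BAM replicate 7 and 1, Vwf, without replicates 6 and 7. Vwf, the clotting factor stored in endothelial granules, ranged from -0.10 to 0.79 (median 0.26) with ASCs and from 0.75 to 2.14 (median 1.27) with BAM. Its difference was -1.0 ± 0.17 (adjusted p = 7.75e-06), and 7 of 8 BAM arrays lay above every ASC array. Kdr, the main receptor for vascular endothelial growth factor, ranged from 2.38 to 3.00 (median 2.61) with ASCs and from 2.57 to 3.77 (median 3.38) with BAM, a difference of -0.68 ± 0.17 (adjusted p = 0.00219). The endothelial nitric oxide synthase Nos3 differed by -0.74 ± 0.22, the receptor Flt1 by -0.64 ± 0.18 and the peptide Apln by -1.27 ± 0.36 (adjusted p = 0.00891, 0.00523 and 0.00602). Pecam1, the junctional marker of endothelium, ranged from 2.03 to 2.56 (median 2.27) with ASCs and from 2.52 to 3.38 (median 2.83) with BAM. Its difference of -0.56 ± 0.17 (adjusted p = 0.00867) was under 1.5-fold. VE-cadherin, Cdh5, differed by -0.77 ± 0.23 (adjusted p = 0.0107) and Tek by -0.14 ± 0.21 (adjusted p = 0.677), and neither was called.

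Hey1, a target of Notch in arterial endothelium, did not overlap between groups, at -3.27 to -2.64 (median -3.03) with ASCs and -2.57 to -1.83 (median -2.22) with BAM, and differed by -0.81 ± 0.19 (adjusted p = 0.00134). In the lower direction, 4.84% of all probes separated in this way. Pdgfrb, the pericyte receptor, differed by -0.69 ± 0.19 and the pericyte gene Cox4i2 by -0.67 ± 0.13 (adjusted p = 0.00458 and 0.000108). The adhesion molecules Vcam1 and Cd34 differed by -0.73 and -0.76, and the hypoxia-inducible factor Epas1 by -0.85 (adjusted p = 0.00801, 0.00627 and 0.00111). Vegfa had medians of 1.58 with ASCs and 1.70 with BAM, with a difference of -0.12 ± 0.17 (adjusted p = 0.659), and 1 of its 4 probes had the opposite sign. Vegfb was called at -2.98 ± 0.74 (adjusted p = 0.00195), but its levels in ASC replicates 5, 6 and 7 were -8.13, -7.93 and -7.92, not well above background. In the other 5 ASC arrays they were -0.89 to 0.21, inside the BAM range of -1.20 to 0.31, so the Vegfb difference rested on 3 arrays.

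**Figure D4:**
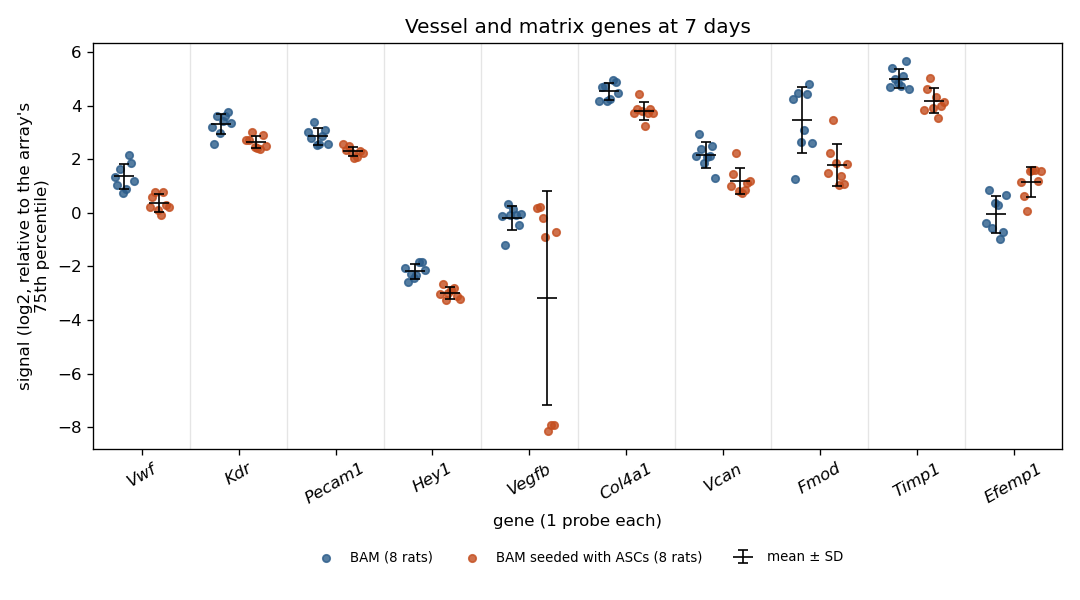
Level of 10 vessel and matrix genes in each array at 7 days (y axis, log2 signal relative to the 75th percentile of the array; x axis, gene). Points are rats, and black bars are the mean and SD of 8 rats. Hey1 does not overlap between the groups, Vegfb falls into separate clusters within the ASC-seeded group, and Efemp1 lies higher with ASCs.

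Over the matrix lists, 164 of 227 listed genes were tested, 22 were lower (13.4%, against 5.83% of all named genes) and 2 were higher, with a median of -0.21. Without BAM replicates 6 and 7, 4 were lower (2.44%, against 2.83% of all named genes in that setting) and 1 was higher, and 12 were lower without replicate 7 alone and 13 without replicate 6 alone. After quantile normalization 8 were lower (4.88%, against 2.82%) and 3 were higher. Fibrillar collagens, the main mass of the wall, gave 0 calls among 8 in limma, with 1 higher and 1 lower at an unadjusted p below 0.05. Col1a1, Col1a2 and Col3a1 were saturated on all 16 arrays and give no fold.

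Of 12 tested basement membrane genes 3 were lower, all of them collagens, and 0 were higher in limma, with 2 higher at an unadjusted p below 0.05. The list median was 0.07, with 6 positive and 6 negative differences. Col4a1, a network-forming chain of all basement membranes, ranged from 3.23 to 4.45 (median 3.76) with ASCs and from 4.16 to 4.94 (median 4.60) with BAM, a difference of -0.75 ± 0.18 (adjusted p = 0.00193). Col18a1, the precursor of endostatin, and Col15a1 differed by -0.78 ± 0.23 and -0.66 ± 0.18 (adjusted p = 0.00841 and 0.00528). None of the 3 was called without BAM replicates 6 and 7. The minor collagen Col9a2 differed by -1.42 ± 0.36 (adjusted p = 0.00215).

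Genes that fold and crosslink collagen or build elastic fibres were lower in 4 of 30 and higher in 1. Serpinh1, the collagen chaperone, ranged from 3.19 to 4.34 (median 3.33) with ASCs and from 3.91 to 4.83 (median 4.32) with BAM, a difference of -0.82 ± 0.17 (adjusted p = 0.000175). The lysyl hydroxylase Plod3 differed by -0.63 ± 0.11 and the microfibril gene Mfap5 by -0.77 ± 0.20 (adjusted p = 2.08e-05 and 0.00306). Efemp1, a fibulin, ranged from 0.05 to 1.59 (median 1.38) with ASCs and from -0.99 to 0.84 (median -0.04) with BAM, and was higher by 1.22 ± 0.21 (adjusted p = 1.71e-05).

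Small leucine-rich proteoglycans, which bind collagen fibrils, were lower in 4 of 11 (36.4%, against 5.83% of all named genes). After quantile normalization 1 was lower and 1 was higher, and 2 were lower without BAM replicates 6 and 7. Chad, a protein of cartilage and tendon, did not overlap, at -5.45 to -4.38 (median -4.77) with ASCs and -4.01 to -2.94 (median -3.38) with BAM, and differed by -1.38 ± 0.28 (adjusted p = 0.000169). Its signal was dim, and 4.84% of all probes were lower without overlap. Fmod, fibromodulin, ranged from 1.02 to 3.46 (median 1.66) with ASCs and from 1.27 to 4.82 (median 3.68) with BAM, a difference of -1.66 ± 0.40 (adjusted p = 0.00128). Prelp differed by -0.63 ± 0.17 (adjusted p = 0.00458). The bright member Dcn, decorin, had medians of 4.32 and 4.42 and was not called (adjusted p = 0.515).

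Of 24 matricellular genes 3 were lower, among them versican, Vcan, at 0.73 to 2.24 (median 1.06) with ASCs and 1.30 to 2.93 (median 2.11) with BAM, a difference of -0.98 ± 0.27 (adjusted p = 0.00543). Tgfbi differed by -0.65 ± 0.18 (adjusted p = 0.00475), and fibronectin, Fn1, by -0.22 ± 0.25 (adjusted p = 0.577), which was not called. Of 30 proteinases and inhibitors 4 were lower, with 1 without BAM replicate 7 and 0 without replicates 6 and 7. They were Timp1, an inhibitor of metalloproteinases, with a difference of -0.83 ± 0.24, Mmp15 with -0.83 ± 0.16, Adam19 with -0.59 ± 0.16, and Adamts15. Plasminogen, Plg, differed by -0.74 ± 0.14 (adjusted p = 4.43e-05). In the transforming growth factor beta list, the activin subunits Inhba and Inhbb were lower, with differences of -0.77 ± 0.20 and -1.28 ± 0.30, and the ligand Tgfb3 was higher by 0.85 ± 0.25, with adjusted p of 0.00278, 0.00109 and 0.00781. A dimmer probe of Inhbb had the opposite sign, and none of the 3 was called without BAM replicates 6 and 7.

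The other cell types of the wall were checked with the same fit. Of 30 smooth muscle contractile genes 1 was higher, with 11 higher at an unadjusted p below 0.05 and a median of 0.27. Myh11, the smooth muscle myosin heavy chain, ranged from 3.00 to 4.71 (median 3.97) with ASCs and from 0.77 to 4.52 (median 3.12) with BAM, a difference of 1.02 ± 0.30 (adjusted p = 0.00895), which was not called without BAM replicates 6 and 7. Acta2 and the gamma smooth muscle actin Actg2 differed by -0.44 ± 0.25 and 0.61 ± 0.26 (adjusted p = 0.212 and 0.0791), and Actg2 was saturated on 5 arrays. Of 18 nerve and Schwann cell genes 2 were higher and 3 were lower. The lower ones were Cadm4, Th and Tubb3, at -1.14, -0.81 and -0.92, and the higher ones were Mal and Uchl1, at 1.99 ± 0.39 and 1.81 ± 0.34 (adjusted p = 0.000124 and 5.71e-05), and Mal is also a membrane protein of epithelia. Of 15 skeletal muscle genes the fast troponin Tnni2 was higher, by 1.22 ± 0.26, while Ckm differed by 1.02 ± 0.41 and was not called (adjusted p = 0.000378 and 0.0621).

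Genes of the seeded cells' lineages gave few calls. Of 18 adipocyte genes only Pparg was called. Adipoq, the adipokine of mature fat cells, ranged from -3.95 to 0.91 (median -1.03) with ASCs and from -3.14 to 1.37 (median -0.26) with BAM (adjusted p = 0.733), and Fabp4 differed by 0.75 ± 0.25 (adjusted p = 0.0226). Of 24 mesenchymal stromal markers 4 were lower and 1 was higher, and examples are Prrx1 at -0.71 ± 0.19 and Cd9 at 0.75 ± 0.21 (adjusted p = 0.00458 and 0.00543). Of the 24, 0 were called without BAM replicates 6 and 7. Of 11 Hedgehog genes 1 was called, the ciliary kinesin Kif7, which was lower with a difference of -1.15 ± 0.24 (adjusted p = 0.000217), with 4 higher and 4 lower at an unadjusted p below 0.05. Of 17 housekeeping genes 2 were lower, the transferrin receptor Tfrc at -1.08 ± 0.26 and the class I light chain B2m at -0.76 ± 0.20 (adjusted p = 0.00141 and 0.00373), with a list median of -0.13, and B2m was saturated on 4 arrays. Of 29 cell cycle genes 0 were called and 7 were lower at an unadjusted p below 0.05.

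Further genes, outside these lists apart from Hpgd, separated the groups without overlap. Among well-measured probes, the largest falls were those of Spmap2, a sperm protein, Or10ag57, Or8g36c and Or5m8, which are olfactory receptors, the trace amine receptor Taar5, the DNA-binding factors Arid3a and Zic2, the potassium channel Kcnma1, the sorting receptor Sorcs1 and the fatty acid hydroxylase Cyp4a1. Their differences ran from -2.84 to -1.89. Each was well above background on every array of both groups, but several were dim. Mean levels with ASCs were -4.96 for Spmap2, -5.4 for Or10ag57, -5.41 for Or5m8 and -5.22 for Cyp4a1. Arid3a and Kcnma1 were brighter, at -1.93 and -2.53. Separation without overlap was found for 4.84% of all probes in the lower direction and 0.343% in the higher. Arid3a levels were -2.55 to -1.57 (median -1.92) with ASCs and -0.44 to 1.16 (median 0.38) with BAM, a difference of -2.32 ± 0.16 (adjusted p = 1.44e-16). Spmap2 levels were -5.25 to -4.68 (median -4.90) with ASCs and -2.72 to -1.34 (median -2.26) with BAM, a difference of -2.84 ± 0.23 (adjusted p = 4.25e-14). The largest rises without overlap were smaller: MGC116197 at 1.33 ± 0.19, Fbxo3 and Hip1r at 1.03, Stap2 at 1.00, Aktip and Hpgd at 0.99, Dnaja4 at 0.95, P2ry1 at 0.89, Slc6a8 at 0.81 and Wasl at 0.75.

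The lower calls were unevenly spread over signal levels. With the probes split into 5 equal classes by mean level over the 16 arrays, the dimmest class held 567 lower and 107 higher calls among 4200, the next held 349 and 172 among 4199, and the brightest class held 122 and 70 among 4200. Falls without overlap numbered 502 in the dimmest class and 78 in the brightest, and rises without overlap numbered 3 in each. The median difference was -0.30 in the dimmest class, and in the next classes upward it was -0.09, -0.03, -0.04 and -0.12. Olfactory, vomeronasal and trace amine receptors, a group chosen by symbol after its values were seen, had 201 of 1275 genes tested, of which 131 were well above background on all 16 arrays. Of the 131, 45 were lower and 0 were higher in limma. Over all 201, 89 were lower, and 35 were lower after quantile normalization; since 70 of them passed the filter through 1 group only, these counts are a description. The mean level of the 131 was -4.50 to -4.04 in the ASC arrays and -3.87 to -3.05 in the BAM arrays, also a description, since the group was chosen after its values were seen. The part of the dim-signal shift in their difference was not tested.

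The seeding effect was compared with that at 30 days, which rests on other arrays. Spots well above background made up 95.6% and 86.2% of BAM_ADSCs_30d replicates 1 and 2, and 73.3% to 77.8% of the other arrays of 30 days. No array of 30 days was left out in turn, so the part of these 2 arrays was not tested. The effects differed for 307 probes, 34 in the higher direction (0.162%) and 273 in the lower (1.30%). The genes given next had been named for called effects at 7 days, and the same 7-day values enter this difference. Lcn2 differed by -4.45 at 7 days and 0.44 at 30 days (adjusted p of the difference = 0.00391), and Hp by -3.22 and 0.21 (adjusted p = 0.00227). Np4 differed by 2.58 and -0.71 (adjusted p = 0.00619), Pglyrp1 by -1.12 and 0.53 (adjusted p = 0.00593) and Vwf by -1.0 and 0.15 (adjusted p = 0.00224). In the matrix, Col4a1 differed by -0.75 and 0.44, Fmod by -1.66 and 0.90 and Efemp1 by 1.22 and -0.06 (adjusted p = 0.00384, 0.00384 and 0.00663). Leaving out BAM replicates 6 and 7 at 7 days, 63 probes differed, and 134 differed without replicate 7 alone.

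For urothelial genes no difference between 7 and 30 days passed in limma (0 of 82), with 15 at an unadjusted p below 0.05. Upk1a differed by 2.36 at 7 days and 0.64 at 30 days (adjusted p of the difference = 0.0813), and Upk3a by 2.28 and 0.42 (adjusted p = 0.0749). Scnn1g differed by 2.69 and -0.02 (adjusted p = 0.0113). At 30 days 16 of the 82 were higher, as against 1.58% of all probes, and Krt5 differed by 1.75, close to its 1.72 at 7 days (adjusted p of the difference = 0.989).

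Across the rats of a group, Upk1a and Csf3r moved in opposite directions. Within the ASC-seeded group Pearson's r was -0.91 and Spearman's rho -0.98 (exact permutation p = 0.000744 and 0.000397, two-sided, n = 8), and within the BAM group r was -0.86 and rho -0.81 (exact permutation p = 0.0112 and 0.0218). After Benjamini-Hochberg adjustment over the 6 relations computed, which were chosen after the values were seen, the values were 0.00446 and 0.00238 with ASCs and 0.0335 and 0.0436 with BAM. Without the 2 arrays farthest from the median of Upk1a, r was -0.87 with ASCs and -0.66 with BAM. For Upk1a and Lcn2, r was -0.70 in each group (exact permutation, adjusted p = 0.0783 and 0.0746). Without the 2 farthest arrays r was -0.48 with BAM and 0.15 with ASCs, so with ASCs it rested on those. For Upk1a and Vwf, r was -0.41 with ASCs and -0.76 with BAM (exact permutation, adjusted p = 0.373 and 0.0615), and rho was -0.21 and -0.83 (adjusted p = 0.619 and 0.0436). Without the 2 farthest arrays r was -0.67 with ASCs and -0.94 with BAM.

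**Figure D5:**
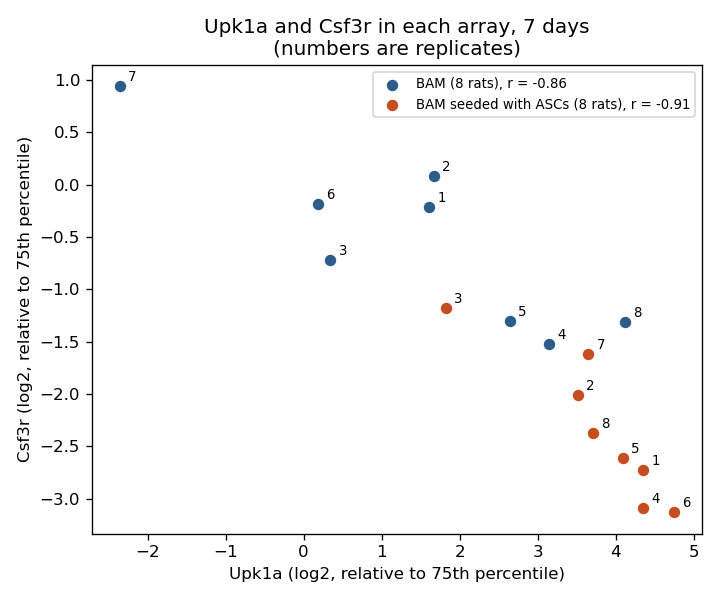
Upk1a against Csf3r in each array at 7 days (both axes, log2 signal relative to the 75th percentile of the array). Points are rats, numbered by replicate, in each group of 8. Within each group the arrays with low Upk1a have high Csf3r, and BAM replicate 7 lies at -2.36 for Upk1a.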

How the data were processed

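The authors extracted total RNA from reconstructed bladder wall, kept extracts by RNA integrity, and hybridized 1 Cy3-labelled sample per array on Agilent rat 8x60K slides, a 1-color design. Per the file headers, the deposited scanner files hold spot intensity from Agilent Feature Extraction 12.0.1.1, and gProcessedSignal, the background-subtracted intensity, was used with its flags. Each array held 62976 spots, of which 58717 were gene spots. The deposited value table of the series was used only as an alternative. In 3 of its columns, replicates 2 to 4 of BAM_ADSCs_7d, the intensity values equal the signal error. That alternative took these columns as they stand, so it is no check of the signal of those 3 arrays.

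Outlier spots were left out, log2 intensity was centred on the 75th percentile of gene spots of each array, and spots of a probe were averaged, which gave 30367 probes. Probes well above background on all 8 arrays of BAM_ADSCs_7d or of BAM_7d were tested (20997, of which 19428 on all 16 arrays). Array signal over background, not read depth, limits precision, and dim probes are the least precise. Symbols came from RefSeq accessions of the files matched to the RefSeq gene table: 18758 probes matched, for 15715 genes. Group means of the 8 groups were fitted over all 64 arrays with limma 3.58.1 in R 4.3.3, in place of the ANOVA of the study's methods. A call needed over 1.5-fold and p below 0.01 after Benjamini-Hochberg adjustment over all probes tested, the study's threshold. The fit was tested on simulated data. The rats were separate animals, with 1 slide per group. The SEs and p-values of the main fit use a spread between rats that is pooled over all 8 groups, not that of the 2 groups of 7 days alone. For Upk1a, with an SE of 0.45, the SD was 0.896 with ASCs and 2.03 with BAM. All 16 arrays of 7 days were scanned on the same day.

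The comparison, the gene lists and the named genes were chosen with earlier results of these data known. Named genes came from a rule: the 10 largest rises and 10 largest falls without overlap, up to 4 called members of each list per direction, and the 2 brightest members, but not all of them are named; defining cell type markers are named too. Upk3bl1, Grhl2, Scnn1b, Tnf, Camp, Cxcl1, Flt1 and Vegfa fell outside the rule and were chosen after their values were seen. In lists a gene stands for its brightest probe. Alternatives were normexp correction with an offset of 50, quantile and median scaling, the percentile over detected probes, other filters and the 16 arrays alone. Further ones were a replicate block, unmoderated variances, outlier spots kept, the value table, other thresholds and leaving out each array of 7 days.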

Additional observations from a re-analysis of the deposited data

Results flagged for a closer look

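In each group of 8 arrays, the highest or lowest level of a named gene was set against Dixon's 95% critical value for its gap to the next array. The gap exceeded it in 23 of 252 sets, and chance alone does so in about 1 in 20. In 14 of the 23 the array was BAM_ADSCs_7d replicate 3. Its levels were low for Upk1a (1.82), Upk3a (3.89), Krt8 (0.60), Krt7 (2.65), Cdh1 (1.77), Actg2 (4.46), Mal (-2.22), Uchl1 (3.50) and Tnni2 (-0.77). They were high for Hpgd (1.02), Apln (-0.72), Col15a1 (4.95), Vcan (2.24) and Inhbb (-0.35). BAM replicate 7 was lowest for Krt19 (-3.76), Krt7 (-2.78) and Elf3 (-2.69), and BAM replicate 2 was apart for Cd68 (2.69, the lowest) and Cxcl1 (4.33, the highest). BAM_ADSCs_7d replicate 8 was lowest for Il11 (-3.48), Arid3a (-2.55) and Kcnma1 (-3.13), and replicate 7 was lowest for Fn1 (4.22).

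The effect of seeding at 7 days minus that at 30 days, on the log2 scale, passed the limma threshold for 15 genes of the comparisons above. Over all tested probes it passed for 0.162% in the higher direction and 1.30% in the lower. The 15 genes had been named for called effects at 7 days, and the same 7-day values enter this difference, so the list is a description. Adjusted p were between 3.72e-05 (Arid3a) and 0.01 (Col18a1). The difference of effects was -4.90 for Lcn2, -3.43 for Hp, -1.65 for Pglyrp1 and 3.29 for Np4 among the inflammatory genes. It was -1.15 for Vwf and -1.22 for Epas1, and in the matrix -1.19 for Col4a1, -1.30 for Col18a1, -2.56 for Fmod, -0.94 for Mmp15 and 1.28 for Efemp1. Outside the lists it was -1.79 for Spmap2, -1.59 for Arid3a, -1.35 for Kcnma1 and 1.69 for MGC116197.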

How the results depend on the processing

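Against 655 probes higher, 1412 lower and 307 that differed between 7 and 30 days, the counts that moved by more than 1.5 times were as follows. Normexp correction gave 388 higher, quantile normalization 699 lower and 158 differing, and the 16 arrays alone 379 higher. With 1 probe per named gene, fewer probes were tested, and the counts were 423, 684 and 131. A fold change over 2 gave 767 lower and 191 differing, and an unadjusted p below 0.01 gave 1659 differing. Without BAM replicates 6 and 7 the counts were 210, 702 and 63, and the cause was not tested. Leaving out 1 array of 7 days gave 447 to 765 higher, 1011 to 1550 lower and 134 to 436 differing. The difference count was 134 without BAM replicate 7, 164 without BAM replicate 6 and 175 without BAM_ADSCs_7d replicate 8. Of the 699 probes lower after quantile normalization, 699 were among the 1412, and of the 706 higher, 607 were among the 655.

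For the 104 called genes counted above, 0 reversed in 29 alternatives, and 364 of 3008 values lost the call. Adamts15, Cadm4, Klrk1, Th, Tubb3 and the genes under Other observations were not part of this count. Of the genes not called, 3 changed sign: Krt20 was -0.19 after normexp and -0.26 to 0.36 when 1 array was left out, and after quantile normalization Tek was 0.03 and Dcn 0.01. Vegfb ranged from -3.47 to -1.57 over its alternatives. Same replicate numbers, which are positions on a slide, did not pair the samples (correlations of deviations -0.09 to 0.20, and 0 of 8 arrays correlated best with its own number); with the replicate block 640 probes were higher, 1411 lower and 341 differed, and Vcam1 lost its call (adjusted p = 0.0117). Limits: slide and group cannot be told apart, dim signals lie near background, and Col1a1, Col1a2, Col3a1, Bgn, Sparc, Timp2 and Lyz2, which count as tested members of their lists, are saturated on all 16 arrays.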

Other observations

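Some called genes outside the lists were chosen after their values were seen, from the 25 largest rises and 25 largest falls among well-measured probes. Prss8, a membrane-anchored serine protease that activates the epithelial sodium channel, ranged from 0.94 to 2.14 (median 1.88) with ASCs and from -3.89 to 1.42 (median -0.05) with BAM, with a difference of 2.27 ± 0.40 (limma, adjusted p = 2.24e-05). Tmprss2, a protease of the same kind, differed by 2.11 ± 0.47 and the connexin Gjb6 by 1.95 ± 0.49 (adjusted p = 0.000611 and 0.00208). Among the falls, Car4, a carbonic anhydrase of capillaries, differed by -2.34 ± 0.58 (adjusted p = 0.00208) and by 0.23 at 30 days. Mcemp1, a membrane protein of mast cells and neutrophils, ranged from -4.78 to -2.14 (median -3.67) with ASCs and from -2.86 to -0.31 (median -1.76) with BAM. Its difference was -1.84 ± 0.49 at 7 days and 1.08 at 30 days (adjusted p of the difference = 0.00693). The potassium channel Kcna6 did not overlap between groups, at -4.77 to -4.09 with ASCs and -3.01 to -2.43 with BAM. Among all probes, 4.84% were lower without overlap.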
